A study of Mus musculus with 4 samples.

Results

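Fibroblasts of the mouse pancreatic islet were described in a single-cell RNA-seq series of NOD mice, a strain that develops autoimmune diabetes. The study asked which genes depend on the transcription factor Xbp1 and its upstream enzyme IRE1α in beta cells. It compared islets of 2 samples labelled Xbp1{beta}-/-, in which floxed Xbp1 was deleted in beta cells, with those of 2 samples labelled Xbp1fl/fl. Both groups were 5 weeks old, and both were given tamoxifen, which switches on an inducible Cre recombinase. No source used here names the promoter that drives the Cre. Islets were freed with collagenase and protease, picked by hand, cultured overnight and taken apart with accutase before 10x library preparation.

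The matrix pools 4 libraries, numbered 1 to 4 by the barcode suffix, and no sample label carries these numbers. No library could therefore be tied to a genotype, no test between genotypes was possible, and each library's own value is given with an exact 95% interval that covers counting error only. Counts are of unique molecular identifiers (UMIs), which mark single transcripts. A cell was counted as a fibroblast when 500 or more genes were detected and no more than 20% of its UMIs were mitochondrial. It also needed at least 2 UMIs of 3 or more of Col1a1, Col1a2, Col3a1, Dcn, Lum and Pdgfra, fewer than 3 UMIs of the pericyte gene Rgs5, and less than 10% of its UMIs from 7 islet hormone genes. This gate took 320 of 16146 filtered cells. Library 1 gave 150 of them (4.13% of its cells, with an interval of 3.50 to 4.83%) and library 3 gave 154 (4.46%, with 3.79 to 5.20%). Library 2 gave 9 (0.171%, with 0.0781 to 0.324%) and library 4 gave 7 (0.185%, with 0.0743 to 0.380%). Libraries 1 and 3 thus held nearly all of them, and no fibroblast barcode was shared between libraries. The libraries held 82963911, 178396311, 85266513 and 110800927 UMIs in the order 1 to 4, and their fibroblasts had a median of 33066.5, 23782, 32381 and 12342 UMIs per cell.

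Fibroblasts lay down the collagens and proteoglycans of the tissue, trim and cross-link them, and release chemokines and growth factors that reach immune cells and blood vessels. In the pancreas they include stellate cells, which in the resting state store vitamin A as retinyl esters and, once activated in injury or in culture, turn to matrix production. The mural cells of small vessels, pericytes and smooth muscle cells, are close relatives and share many matrix genes with them.

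The gate was met well beyond its minimum by most cells. Of the 320 cells, 180 passed on all 6 genes, 86 on 5, 22 on 4 and 32 on 3, and a further 28 cells lay just outside with 2 of the 6. The cells with 3 genes had a median of 1692 CPM summed over the 6 genes, where CPM is the UMIs of a gene scaled to a total of 1e6, and those with 2 had 870 CPM. Col1a1 reached 2 UMIs in 97.2% of the cells and Pdgfra in 70.6%. These values chose the cells and are given as a description.

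The label fibroblast matched the marker genes in most cells but not in all. Prrx1, a homeobox gene of connective tissue that the gate did not use, stood at 566 CPM in library 1, 739 in library 2, 567 in library 3 and 438 in library 4. Its level was 495 and 434 CPM in mural cells of libraries 1 and 3, and at most 1.22 CPM in endothelial cells there. The stellate part of the label had less behind it. Lrat, the enzyme that makes retinyl esters for storage, had 0 UMIs in the fibroblasts of libraries 1 to 4. Gfap, an intermediate filament gene of stellate and glial cells, was at 89 CPM in 1 small group of Schwann-like cells described further on and at 0 CPM in each other group. Desmin (Des), a muscle-type filament also used as a stellate marker, was at 39.6 and 59.1 CPM in fibroblasts against 101 and 255 CPM in mural cells of libraries 1 and 3.

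Of the 320 cells, 89 also carried at least 2 UMIs of 2 or more markers of another cell class, among them 37 with mural, 21 with ductal, 15 with endothelial and 11 with Schwann cell markers. Markers of beta cells, 7 genes in all, summed to 1914, 9913, 1152 and 10548 CPM in the fibroblasts of libraries 1 to 4, and their part in the results was not tested. The fibroblasts of libraries 2 and 4, with 281557 and 75273 UMIs in all, also held the larger share of hormone transcripts, a median of 1.46% and 1.40% of UMIs against 0.0766% and 0.0819% in libraries 1 and 3.

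Matrix genes set fibroblasts apart from the endothelium, and their difference from mural cells depended on which mural cells were counted. Levels were compared within libraries 1 and 3, the only ones with at least 20 fibroblasts, and a gene was called when its log2 ratio of CPM, with 10 CPM added to each side, showed at least a 2-fold difference of the same direction in both. Fibroblasts had 731 genes higher (6.38%) and 1139 lower (9.94%) of 11460 genes set against endothelial cells. Against mural cells, 56 genes were higher (0.505%) and 171 lower (1.54%) of 11089. The classes were drawn by markers, so the counts describe the gates as well as the cells. Of the mural cells, 15 of 32 in library 1 and 18 of 34 in library 3 also met the collagen part of the fibroblast gate. Without those cells, which leaves 17 and 16 mural cells, 391 genes (3.54%) were higher and 472 (4.27%) lower of 11042. Fibroblasts were then higher for 6 of 8 collagen VI and fibril-associated genes, 5 of 9 small proteoglycans, 14 of 29 matrix glycoproteins and 5 of 10 trimming and cross-linking genes. They were also higher for 17 of 31 growth factors, 7 of 16 chemokines and 6 of 12 complement genes. Those mural cells were chosen by low collagen, Dcn, Lum and Pdgfra, so these counts are a description.

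**Figure D1:**
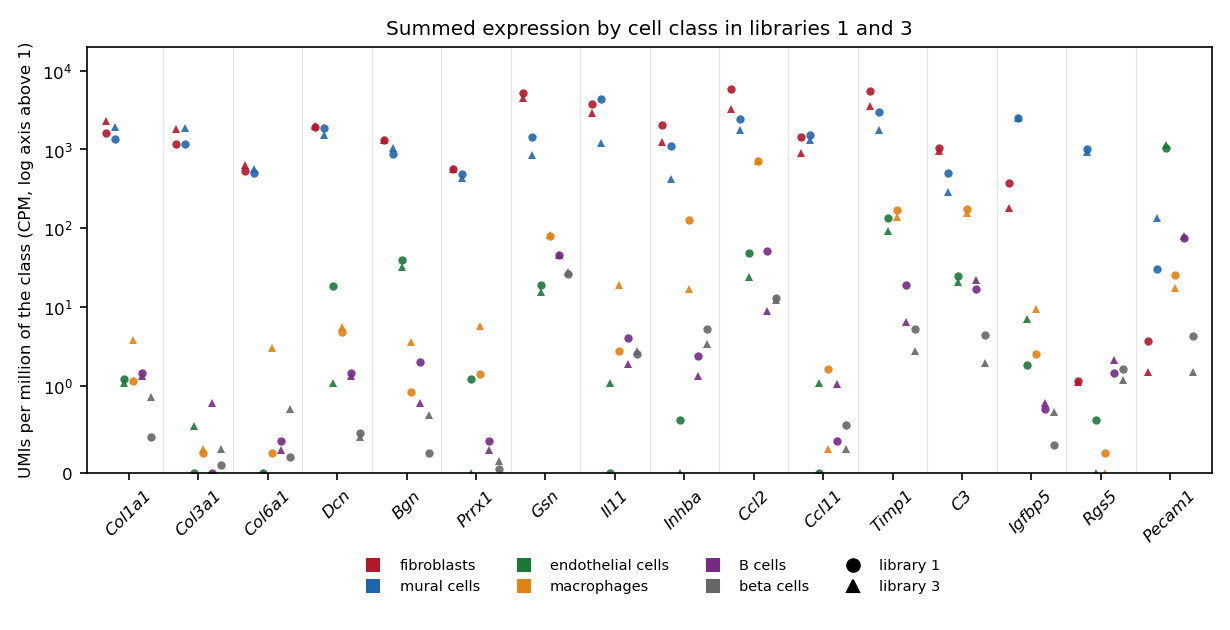
CPM of 16 genes in 6 cell classes, with UMIs summed over the cells of a class in library 1 (circles) and library 3 (triangles), on an axis that is logarithmic above 1 CPM. Collagens, Dcn, Bgn and Prrx1 are at similar levels in fibroblasts and in mural cells with none left out, while Gsn is higher in fibroblasts (5210 and 4541 CPM) than in mural cells (1450 and 861 CPM), and Rgs5 and Igfbp5 are lower.

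The fibril-forming collagens, which make the ropes of connective tissue, led this difference from endothelium. All 6 measured members were at least 2-fold higher in fibroblasts, with medians of 6.17 and 6.52 log2 units in libraries 1 and 3, where the median of all genes was -0.08 in both; 3 of the 6 belong to the gate. Col1a1 had 1632 CPM (1597 to 1667) in the fibroblasts of library 1 and 2309 CPM (2269 to 2350) in those of library 3. Libraries 2 and 4 had 1978 and 704 CPM. This compares with 1.22 and 1.08 CPM in the endothelial cells of libraries 1 and 3. Col3a1, at 45311538 to 45349706 on chromosome 1 (GRCm38, plus strand), and its neighbour Col5a2, at 45374321 to 45503282 on the minus strand, were both high, at 1171 and 1799 CPM for Col3a1 and 484 and 617 CPM for Col5a2. Against all mural cells, where Col1a1 had 1350 and 1930 CPM, none of the 6 was called. Without the mural cells that met the collagen part of the gate, 6 of 6 were higher, with medians of 2.74 and 2.30, and 3 of these genes chose the cells left out.

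Collagen VI, which forms beaded filaments around cells, and the collagens that sit on fibrils were all higher than in endothelium, 8 of 8 members. Col6a1 was at 530 CPM in library 1 and 640 in library 3, and 0 UMIs were found in the endothelial cells of both libraries. Col6a5 was at 418 and 480 CPM in libraries 1 and 3, but 0 of 281557 and 0 of 75273 UMIs came from it in the fibroblasts of libraries 2 and 4, which allows up to 10.7 and 39.9 CPM. The 9 fibroblasts of library 2 and the 7 of library 4 thus showed no UMI of a gene that was common in the other libraries, and they carried Col6a1 at 490 and 226 CPM.

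Basement membrane genes ran the other way. Of 14 set against endothelium, 9 were lower in fibroblasts and 1 was higher, with medians of -1.47 in both libraries. Col4a1, a chain of the collagen sheet under endothelium, was at 477 and 618 CPM in fibroblasts against 1268 and 1412 CPM in endothelial cells. Lama2, a laminin chain of muscle and mesenchyme, was the 1 higher gene, at 25.7 and 30.1 CPM in fibroblasts against 0 UMIs in endothelial cells.

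Of the enzymes that trim and cross-link collagen, 8 of 11 were higher than in endothelium and 1 lower, and 2 of 10 were higher than in mural cells. Pcolce and Pcolce2, the ones higher than in mural cells, are procollagen C-proteinase enhancers, which speed the removal of the collagen propeptide. Pcolce was at 242 and 219 CPM in fibroblasts against 82 and 87 CPM in mural cells, and Pcolce2 at 117 and 99.9 CPM against 47.4 and 20.5 CPM. Among the small leucine-rich proteoglycans, which bind to collagen fibrils, 7 of 9 were higher than in endothelium. Bgn, one that the gate did not use, had 1331 CPM in library 1, 1073 in library 2, 1302 in library 3 and 571 in library 4. Among matrix glycoproteins 17 of 29 were higher than in endothelium and 1 lower. Tnc, a glycoprotein of wounds and remodelling tissue, had 1136 and 893 CPM in fibroblasts against 2.44 and 0 CPM in endothelial cells, and Sparc was level at 2654 and 2803 CPM against 2364 and 2967 CPM.

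Contractile genes were shared with mural cells, and some were lower in fibroblasts. Acta2, the smooth muscle actin of activated fibroblasts, was at 404 CPM in library 1 and 516 in library 3 against 491 and 836 CPM in mural cells. Of 11 contractile genes, 4 were called lower than in mural cells and none higher, and 7 of 9 were higher than in endothelium. Acta2, Tagln and Myh11 of this list also helped to choose the mural cells, so the contrast with mural cells is a description. The myosin kinase gene Mylk was at 47.5 and 69.3 CPM in fibroblasts and at 109 and 173 CPM in mural cells.

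Gate genes aside, the 12 genes with the highest called ratios over endothelium were Il11, Gsn, Inhba, Ccl11, Ccl2, Tnc, Mfap5, Ccl7, Aldh1a3, Col6a1, Prrx1 and Postn, so that secreted signals stood among them beside matrix. Il11, a cytokine of the interleukin-6 family that acts on fibroblasts, had 3834 CPM (3781 to 3888) in library 1 and 2934 CPM (2888 to 2980) in library 3. Libraries 2 and 4 had 966 and 10748 CPM, from 6 of 9 and 4 of 7 cells. Endothelial cells had 0 and 1.08 CPM and mural cells 4421 and 1208 CPM, so that fibroblasts were lower than mural cells in library 1 and higher in library 3. Without the mural cells that met the collagen part of the gate, Il11 was higher in fibroblasts by 3.01 and 2.91 log2 units. Inhba, the subunit of activin A, was at 2070 and 1250 CPM in fibroblasts, 1102 and 422 CPM in mural cells and at most 0.610 CPM in endothelial cells. Gsn, which cuts actin filaments, was at 5210 CPM in library 1, 732 in library 2, 4541 in library 3 and 1926 in library 4. Aldh1a3, an enzyme that makes retinoic acid, was at 768 and 555 CPM in fibroblasts against 1.83 and 0 CPM in endothelial cells.

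Chemokine genes were high in fibroblasts. Of 17 set against endothelium, 10 were higher and 2 lower, and 4 of 16 were higher and 1 lower than in mural cells. Ccl2 and Ccl7, which draw monocytes, and Ccl11, which draws eosinophils, lie together on chromosome 11, at 82035571 to 82037453, 82045712 to 82047525 and 82057823 to 82062955 (plus strand). Ccl2 had 5832 CPM (5767 to 5898) in library 1 and 3245 CPM (3197 to 3293) in library 3, with 3264 and 6297 CPM in libraries 2 and 4. Mural cells of libraries 1 and 3 had 2411 and 1779 CPM, macrophages 720 and 718 CPM and endothelial cells 48.2 and 23.8 CPM. Ccl11 was at 1428, 142, 913 and 292 CPM in libraries 1 to 4. Cxcl14, a chemokine of many epithelia and fibroblasts, was at 2117 and 1747 CPM against 684 and 288 CPM in mural cells, with 0.410 and 2.13 CPM in beta cells. Ccl21a and Cxcl12 were the 2 lower than in endothelium.

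Complement and growth factors followed the same line. Of 12 complement genes, 7 were higher than in endothelium and none lower. C3, the central component, stood at 1058 and 945 CPM in fibroblasts against 502 and 292 CPM in mural cells, the 1 complement gene called there. Of 32 growth factors, 20 were higher than in endothelium and 4 lower. Ptn, a heparin-binding growth factor, was at 289 and 265 CPM in fibroblasts, 68.6 and 62.7 CPM in mural cells and at most 2.16 CPM in endothelial cells. Fgf2 and Gas6, the ligand of the Axl and Mer kinases, were the other two called higher than in mural cells, and Pdgfa, Tgfb2 and Kitl were among the 4 called lower. Fibroblasts carried the receptor gene Pdgfra, at 137 and 211 CPM, which was part of the gate. Pdgfrb, one of the genes that chose the mural cells, was at 151 and 181 CPM against 285 and 540 CPM in mural cells.

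Genes of antigen presentation and of the interferon response ran lower than in endothelium. None of 18 genes of MHC class I presentation was higher and 10 were lower, with medians of -1.09 and -1.20. H2-K1 was at 1265 and 973 CPM in fibroblasts against 3148 and 2439 CPM in endothelial cells. Of 36 interferon-stimulated genes, 1 was higher and 14 were lower. Of 20 immediate early genes, 9 were lower than in endothelium, none higher, and 4 were lower than in mural cells. Fos was at 173 and 227 CPM in fibroblasts against 684 and 589 CPM in mural cells and 880 and 709 CPM in endothelial cells.

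Among the 12 genes with the highest called ratios over mural cells, Lyz2 and C1qa are macrophage genes, and their UMIs sat in a few fibroblasts. For Lyz2, 13 of the 59 cells of 1 group held its UMIs, and 1 of these cells gave 55.5% of them. Gsn, Cxcl14, Igfbp4, Ly6c1, Serpinb2, Penk, Mmp9, Dio2, Cxcl13 and Ccl8 made up the rest. Cxcl13, a chemokine for B cells, was at 176 and 135 CPM in fibroblasts against 0 and 12.8 CPM in mural cells. Its median ratio was 3.44 log2 units, and 1.02 when 2 groups of fibroblasts with many markers of other classes were left out. The lower end held Rgs5 of the gate, with 1.15 and 1.11 CPM, and Gm13889, Ednrb, Ptp4a3, Esam, Gja4, Stc1 and Igfbp5. Igfbp5, which binds insulin-like growth factors, was at 370 and 183 CPM in fibroblasts against 2484 and 2497 CPM in mural cells and 1.83 and 7.02 CPM in endothelial cells.

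The fibroblasts had 79.2 CPM of Xbp1 itself (71.7 to 87.2) in library 1 and 96.8 CPM (88.7 to 105) in library 3. Libraries 2 and 4 had 74.6 CPM (46.2 to 114) and 93.0 CPM (37.4 to 192). Its level was higher in mural cells, at 123, 124, 155 and 141 CPM in libraries 1 to 4. Endothelial cells had 343, 120, 321 and 109 CPM. Reads of the deleted and intact alleles were not told apart, and the labels place the deletion in beta cells.

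The fibroblasts fell into 7 groups when clustered on 1500 variable genes. Groups 1 to 7 held 90, 59, 81, 32, 37, 10 and 11 cells. Mitochondrial, hormone, immediate early and heat shock genes were left out of the clustering, and with them Hspa5, Hsp90b1, Hspa1a and Hspa1b. Other genes that follow may be among the 1500. The groups were drawn from expression in the same cells, so differences between groups describe the groups and carry no test.

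**Figure D2:**
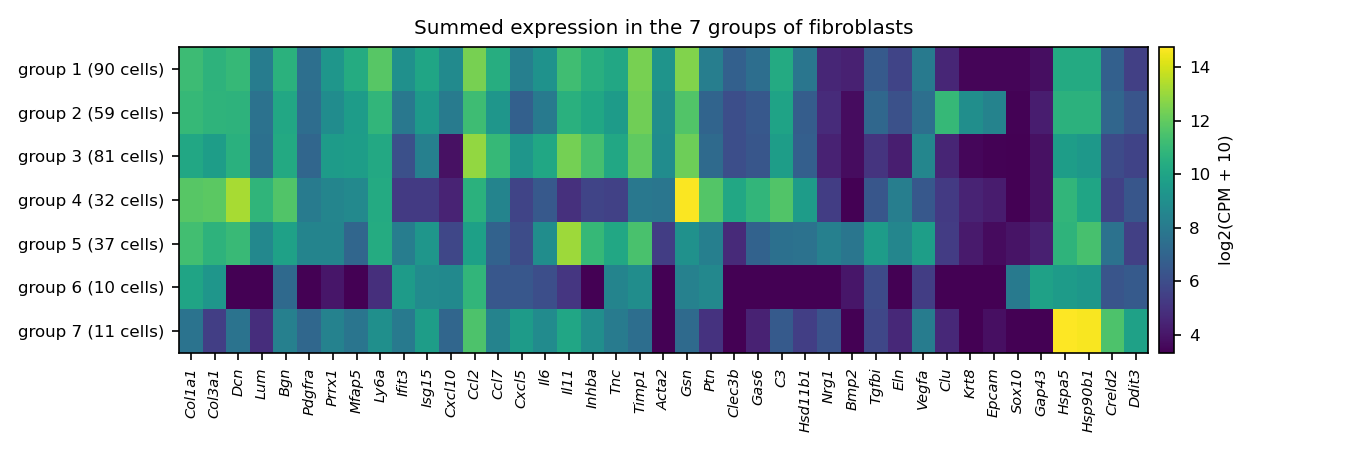
log2 of CPM plus 10 in the 7 groups of fibroblasts, with UMIs summed over the cells of each group; the number of cells is given at the left. Collagens and Dcn are high in groups 1 to 5, Gsn is highest in group 4 (26546 CPM), Dcn and Pdgfra are at 0 in group 6, and Hspa5 and Hsp90b1 reach 27831 and 25641 CPM in group 7.

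Group 1 was led by interferon-stimulated genes. Cxcl10, Ifit3, Ly6c1, Serpinb2, Ifit3b, Ly6a, Ccl21a and Thbs4 were its 8 leading genes, although all 56 UMIs of Ccl21a came from 1 cell. Ifit3, an antiviral gene, was at 527 CPM there, and 80 of its 90 cells held UMIs. Isg15, a ubiquitin-like interferon-stimulated protein, was at 1048 CPM in group 1, 303 in group 3 and 28.7 in group 4. Mfap5, a microfibril gene, was at 1301 CPM in group 1 and at 127 in group 5.

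Group 3 held high levels of inflammatory signals. Ccl2 was at 7771 CPM in group 3, 5467 in group 1 and 910 in group 5. Il6 was at 1134 CPM, against 555 in group 1 and 82.0 in group 4. Mmp3, a stromelysin, led the group at 252 CPM, but 57.0% of its UMIs came from 1 cell. Cxcl5, a chemokine for neutrophils, was at 645 CPM and was carried by 51 of 81 cells, and it was at 760 CPM in group 7. Cxcl10 was at 4.17 CPM in group 3 against 429 in group 1.

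Group 4 was rich in matrix genes and low in Il11, Tnc and Timp1. Its 32 cells held few UMIs, with a median of 7125 against 34121.5 in all other fibroblasts. Gsn was at 26546 CPM and Dcn at 9907 CPM, and each of the 32 cells carried Gsn. The level held in both libraries, at 26110 CPM in 24 cells of library 1 (25392 to 26845) and 28655 CPM in 5 cells of library 3 (27085 to 30292). Ptn was at 3284 CPM, Gas6 at 1837, Clec3b at 1136, C3 at 3211 and Hsd11b1, which activates glucocorticoids, at 800. Il11 was at 20.5 CPM there, with UMIs in 4 of 32 cells, Tnc at 36.9 and Timp1 at 230, against 8580, 1135 and 2881 CPM in group 5. Low Il11 and Timp1 were not confined to group 4. Il11 was carried by 1 of 10 cells of group 6, and the median share of Timp1 per cell was 0.0121% in group 4 and 0.0107% in group 7. Ccl2 was at 1554 CPM in group 4 and 910 CPM in group 5, and the chemokine list made up 0.516 and 0.290% of their UMIs. Abca8a, a transporter gene carried by 24 of 32 cells, was among the leading genes. Hspa1a, Mpv17l and Irgm1 also led, but 70.2, 97.3 and 97.2% of their UMIs came from 1 cell each.

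**Figure D3:**
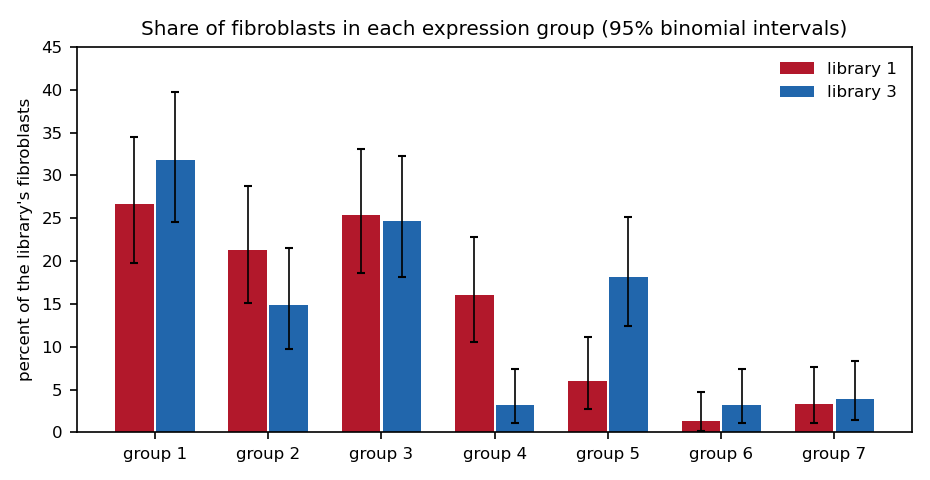
Share of the fibroblasts of library 1 (red) and library 3 (blue) in each of the 7 groups, with exact 95% binomial intervals that cover counting error only. Group 4 takes 16.0% of library 1 and 3.25% of library 3, group 5 takes 9 of 150 and 28 of 154 cells, and the intervals of the other groups overlap.

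Group 5 was led by Bmp2, Nrg1, Tgfbi, Igkc, Wif1, Eln, Dio2 and Ptgs1. Bmp2, a bone morphogenetic protein, was at 215 CPM against at most 10.5 in the other groups. Nrg1, an ErbB ligand, was at 304 CPM, with UMIs in 30 of 37 cells, and Tgfbi, a collagen-binding matrix protein, was at 801 CPM with UMIs in 35 cells. Eln, elastin, was at 374 CPM over the group, but at 20.8 CPM in its 9 cells of library 1 (7.63 to 45.3) and 491 CPM in its 28 cells of library 3 (446 to 540). Il11 reached 8580 CPM and Vegfa, which acts on endothelium, 836. Acta2 was low at 32.8 CPM, and so was Aldh1a3 at 25.0 CPM. The leading gene Igkc encodes an immunoglobulin chain, and 1 cell gave 68.4% of its UMIs.

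Groups 2 and 6 carried markers of other classes. Group 2 held 38 of its 59 cells with markers of another class, 21 of them ductal, and was led by Clu, Krt18, Krt8, Retnla, Epcam, Lyz2, Cldn4 and Lcn2. It kept the fibroblast genes at the same time, with Col1a1 at 2044 CPM and Dcn at 1688, and its median of 42219 UMIs per cell exceeded the 30514 of all other fibroblasts. It also held 20 of the 21 fibroblasts with at least 2 UMIs of 2 or more of 5 proliferation markers, of which 15 were in library 1, 3 in library 2 and 3 in library 3. Group 6 met the gate through collagens alone. Its 10 cells had 0 UMIs of Dcn, Lum and Pdgfra, and 6 of 7 Schwann cell markers at 20 CPM or more, so it is called Schwann-like. The glial transcription factor gene Sox10 was at 249 CPM and the neuronal growth gene Gap43 at 920 CPM. Its collagen genes were Col5a2 at 1234 CPM, Col18a1 at 1272 CPM and Col1a1 at 1023 CPM. The group took 2 of 9 fibroblasts in library 2 and 1 of 7 in library 4, against 2 of 150 in library 1 and 5 of 154 in library 3.

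Group 7 was set apart by chaperones of the endoplasmic reticulum (ER). When unfolded proteins gather in the ER, the sensors IRE1α, ATF6 and PERK switch on folding and disposal genes through Xbp1, ATF6 and ATF4. Hspa5, the chaperone BiP, was at 27831 CPM in the 11 cells, against 1312 CPM in all other fibroblasts, and at 28395 CPM in 5 cells of library 1 (27466 to 29348) and 27354 CPM in 6 cells of library 3 (26514 to 28213). Derl3, Creld2, Sdf2l1, Herpud1, Gdf15, Hsp90b1 and Pdia4 were its other leading genes. Hsp90b1, the chaperone GRP94, was at 25641 CPM against 1377 CPM, and Ddit3, the stress factor CHOP, at 933 CPM against 34.5 in group 1. The 25 unfolded protein response genes made up 9.25% of the UMIs of group 7 and between 0.467 and 1.14% of those of groups 1 to 6. Xbp1 was at 221 CPM in group 7 against 85.3 in group 1 and 50.9 in group 3. The matrix genes were low in these cells, with Col1a1 at 195 CPM, Col3a1 at 33.2 CPM and Dcn at 195 CPM, so the cells stood near the lower edge of the gate.

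Every cell of group 7 shared this pattern. In library 1 the 5 cells had 0.626, 1.06, 2.45, 3.02 and 4.95% of their UMIs from Hspa5, and in library 3 the 6 cells had 1.33, 1.65, 2.35, 3.62, 3.73 and 4.33%. The median over the group was 2.45%, against 0.0738% over the other 309 fibroblasts, whose highest cell reached 2.76%. The 6 gate genes made up 0.0412 to 0.167% of UMIs in group 7, against a median of 0.708% in the others. At a level of 1% of UMIs from Hspa5, 14 fibroblasts passed, 10 in group 7 and 4 outside it. They were 6 of 150 in library 1 (4.00%, interval 1.48 to 8.50%) and 8 of 154 in library 3 (5.19%, 2.27 to 9.98%), with 0 of 9 and 0 of 7 in libraries 2 and 4, which allows shares up to 33.3 and 42.9%. Over the 4 libraries, 1 of 142 mural cells, 2 of 417 endothelial cells, 1 of 466 macrophages and 17 of 6282 beta cells passed the same level. Among all filtered cells 62 of 16146 (0.384%) passed, so some of them lay in none of these classes. Hormone genes took a median of 40.1 to 57.4% of the UMIs of beta cells in the 4 libraries, which leaves less for other genes.

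**Figure D4:**
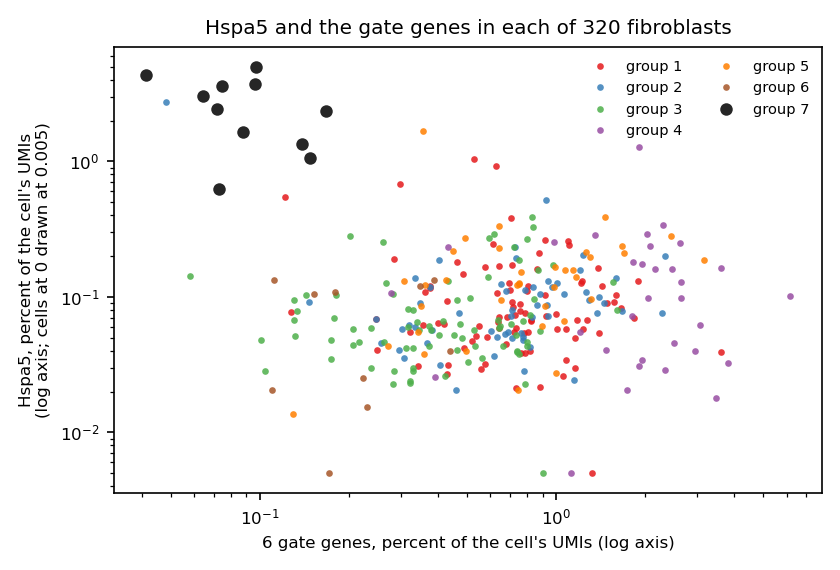
Percent of each cell's UMIs from Hspa5 against the percent from the 6 gate genes, both on log axes, for the 320 fibroblasts coloured by group. The 11 cells of group 7 (black) lie at 0.626 to 4.95% Hspa5 and at the low end of the gate genes, apart from nearly all other cells.

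Many ER chaperone promoters carry the ER stress response element, CCAAT and CCACG with 9 bases of any kind between them, whose 2 ends are bound by NF-Y and ATF6. In windows of 250 bases before to 50 after each gene's start (RefSeq, GRCm38.p6), the element was found on either strand in 39 of 32851 windows (0.119%). Counted by gene, it was found in 37 of 27025 genes (0.137%). It was found in 8 of the 22 unfolded protein response genes with a window and in 4 of the 8 leading genes of group 7. Hspa5, Hsp90b1 and Creld2 are in both of these counts. The stretches around the element are shown for the 4 genes of group 7 because they led the group. They are written along each gene's strand with the element in capitals. They lie at chr2:34771995-34772053 (plus) for Hspa5, chr10:86705523-86705686 (minus) for Hsp90b1, chr15:88819490-88819548 (plus) for Creld2 and chr10:75893212-75893270 (plus) for Derl3. Hsp90b1 has the element once in each direction, and Creld2 and Derl3 have it in the reverse direction. A match in letters is a description and not evidence of binding.
Hspa5: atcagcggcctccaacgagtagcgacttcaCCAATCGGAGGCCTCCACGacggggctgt
Hsp90b1: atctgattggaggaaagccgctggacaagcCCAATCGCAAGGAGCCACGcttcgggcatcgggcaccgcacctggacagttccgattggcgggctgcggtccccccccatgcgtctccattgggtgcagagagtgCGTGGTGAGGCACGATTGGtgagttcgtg
Creld2: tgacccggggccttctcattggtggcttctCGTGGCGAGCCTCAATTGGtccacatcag
Derl3: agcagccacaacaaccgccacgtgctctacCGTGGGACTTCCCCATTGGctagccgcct

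The groups made up unlike shares of the fibroblasts of libraries 1 and 3. Group 4 took 16.0 and 3.25%, group 5 took 6.0 and 18.2%, and the intervals of the other groups overlapped. Summed over all their fibroblasts, a sum in which cells with few UMIs weigh little, the libraries had similar levels of most genes. Whole sets of genes were shifted by small amounts. Of 1764 genes at 100 CPM or more in 1 of these libraries, 7 (0.397%) differed by 4-fold or more. Of 3277 genes at 50 CPM or more, 28 (0.854%) were at least 2-fold higher in library 1 and 10 (0.305%) at least 2-fold lower, with a median log2 difference of -0.02. With 1 library on each side, these differences have no replicate check.

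Inflammatory and interferon-stimulated genes ran higher in library 1. By any size, 1466 of the 3277 genes (44.7%) were higher there, against 19 of 20 interferon-stimulated genes (median 0.34 log2 units), 11 of 11 genes of MHC class I presentation (0.30), 11 of 13 chemokines (0.38) and 7 of 8 cytokines (0.52). At 2-fold, 1 interferon-stimulated gene, Irgm1, and 2 of the cytokine list, Lcn2 and Il33, passed. Of Lcn2, 839 UMIs lay in group 2, the group with ductal markers. For Irgm1, 49.6% of its UMIs in library 1 came from 1 cell. Ccl2 differed by 0.84 log2 units, and its median per cell was 1753 CPM in library 1 and 389 CPM in library 3. Cxcl10 was at 304 CPM in library 1 and 156 in library 3, with 50 and 36 cells carrying it. The same lists in other classes of the 2 libraries gave 23 of 28 interferon-stimulated genes higher in library 1 for mural cells, 31 of 31 for endothelial cells and 29 of 30 for macrophages, where 47.9, 48.1 and 42.2% of all genes were higher. For MHC class I presentation the counts were 14 of 14, 15 of 16 and 16 of 16. The shift was therefore present in these other classes as well.

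**Figure D5:**
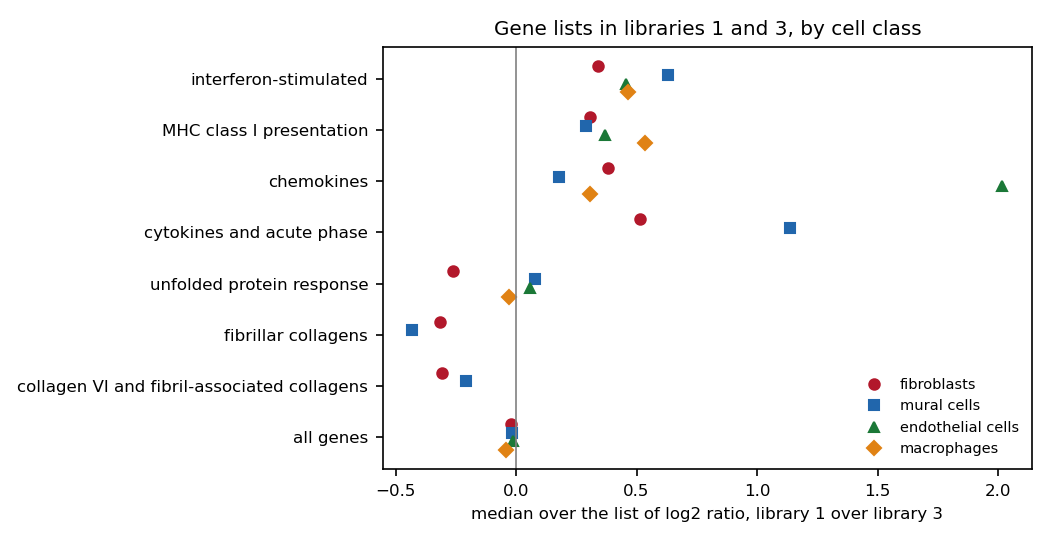
Median log2 ratio of library 1 over library 3 over the members of 7 gene lists and over all genes, in fibroblasts, mural cells, endothelial cells and macrophages, for lists with at least 4 members at 50 CPM in the class. Interferon-stimulated genes lie right of 0 in the 4 classes (0.34 in fibroblasts), while unfolded protein response genes lie left of 0 in fibroblasts (-0.26) and near 0 in the others.

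Collagen and unfolded protein response genes ran lower in library 1. None of 6 fibrillar collagens (median -0.32), none of 7 collagen VI and fibril-associated genes (-0.31) and none of 20 unfolded protein response genes (-0.26) was higher there, and none of these passed 2-fold. Col3a1 was at 1171 CPM in library 1 and 1799 in library 3. In mural cells the fibrillar collagens were also lower in library 1, 6 of 6, with a median of -0.43. For the unfolded protein response, 12 of 20 genes were higher in library 1 in mural cells, 13 of 21 in endothelial cells and 9 of 19 in macrophages. With group 7 left out, 0 of 20 were higher in library 1 fibroblasts (-0.29). Within group 1 the count was 3 of 20 (-0.22), but within group 3 it was 15 of 20 (0.25), so the shift did not hold in each group. Over all genes at 50 CPM or more, 50.3% were higher in library 1 within group 1 and 41.1% within group 3. The fibrillar collagens were lower in library 1 within group 1 (-0.50) and group 3 (-0.58), and the interferon-stimulated genes were higher in 20 of 20 and 17 of 20.

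The 20 genes with the widest range were Retnla, Hspa1a, Lcn2, Mmp3, Eln, Serpinb2, Tgfbi, Penk, Ass1, Hmgb2, Il33, Mmp9, Pi16, Irgm1, Uap1, F2r, Cck, Igfbp5, Mgp and Spp1. Several rested on single cells. Retnla, a macrophage-secreted factor, was at 11.1 CPM in library 1 and 259 in library 3, where 1 cell gave 50.4% of the UMIs. Hspa1a was at 131 CPM in library 1 and 8.13 in library 3, and without its richest cell in library 1 it was at 40.0 CPM. Others were spread over many cells. Tgfbi was at 74.7 CPM in 61 cells of library 1 and 244 CPM in 84 cells of library 3. Il33, an alarmin held in the nucleus, was at 182 CPM in 83 cells and 69.4 CPM in 54 cells, and Uap1 was at 490 and 233 CPM. Spp1 was at 2206 and 1135 CPM, but beta cells had 11628 and 10238 CPM and B cells, which should lack it, 1943 and 1376 CPM. Hormone genes made up 2.65 and 2.92% of the summed UMIs of these B cells, against 0.261 and 0.133% in fibroblasts. How much of the Spp1 in fibroblasts was background was not tested.

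In the few fibroblasts of libraries 2 and 4, Isg15, Ifit3 and Cxcl10 rested on at most 2 cells per library. Bst2, another interferon-stimulated gene, was carried by 7 of 9 cells in library 2 and 4 of 7 in library 4. Its level there was 78.1 CPM (49.0 to 118) and 252 CPM (152 to 394), against 1660 and 1368 CPM in libraries 1 and 3. Isg15 had 14.2 CPM (3.87 to 36.4) in library 2 and 332 CPM (215 to 490) in library 4, from 2 cells each. It had 821 CPM (796 to 846) in library 1 and 660 CPM (638 to 682) in library 3. In libraries 1 to 4, endothelial cells had 904, 35.3, 495 and 54.4 CPM, so Isg15 was lower in libraries 2 and 4 there too. Ifit3 had 0 UMIs in library 2 and 266 CPM (162 to 410) in library 4, from 1 cell, against 370 and 265 CPM in libraries 1 and 3. The 151 UMIs of Cxcl10 in library 4, or 2006 CPM, came from 1 cell as well. Cck, the gene of cholecystokinin, gave 275 UMIs in 3 of the 9 fibroblasts of library 2, where beta cells were at 0.431 CPM. In libraries 1 and 3, where 21 and 24 fibroblasts carried Cck, beta cells were at 467 and 396 CPM.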

How the data were processed

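Single-cell RNA-seq UMI counts were used as deposited. Per the submitters' processing notes, the authors used Cell Ranger 6.1.2 and mm10. No source used here names their gene annotation. The pooled matrix holds 32285 genes and 19987 barcodes in 4 libraries, and 32158 identifiers (99.6%) were found in GENCODE M21, the source of coordinates.

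The members, gene lists and markers were chosen with earlier results of these data known. Mural, endothelial, macrophage, B and beta cells were gated by UMI counts of markers in the same way as the fibroblasts. A gene's UMIs, summed over the cells of 1 class in 1 library, were scaled to that sum's total to give CPM. Ratios took genes with at least 10 UMIs in either class, with a pseudocount of 10 CPM. No test was run: no library is tied to a sample, libraries 1 and 3 stand alone against each other, and the classes, compared within only 2 libraries, were gated on some of the genes compared. Exact Poisson intervals go with counts and Clopper-Pearson ones with shares. A count of 0 allows up to 3 counts. Groups came from Leiden clustering of 20 principal components with 15 neighbours at resolution 0.5 (scanpy 1.11.5, igraph 0.11.9). No doublet caller was run; cells with markers of another class were left out as an alternative.

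Named genes were, in each of 28 lists, the 5 highest and the 3 with the widest range, 12 genes each way per contrast, the 20 widest between libraries, the gate genes, Rgs5 and Xbp1, and 8 leading genes per group. Other members are named as examples from the lists, chosen after their values were seen. Simulated counts with 100 genes raised and 100 lowered 4-fold were all called in both contrasts, with 0 unchanged genes called. A 4-fold change lies well above the 2-fold call, so the simulation does not show how changes near 2-fold would be called.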

Additional observations from a re-analysis of the deposited data

Results flagged for a closer look

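Cells that missed the gate on 1 condition carried the fibroblast genes. There were 35 cells that met the collagen condition but had 3 or more UMIs of Rgs5, 15 in library 1, 1 in library 2, 18 in library 3 and 1 in library 4, and they had a median of 7004 CPM summed over the 6 gate genes. A further 21 cells met it but took 10% or more of their UMIs from hormone genes, with a median of 74168 UMIs per cell and 1719 CPM of the gate genes. Neither set entered the fibroblast levels, and their makeup was not tested.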

How the results depend on the processing

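Of the values that summarise a comparison, 48 recomputed values stayed within the spread or within 1.5 times the reported count and 20 moved. Genes higher and lower than in mural cells numbered 195 and 297 when cells were averaged with equal weight, 214 and 404 with a pseudocount of 1, and 391 and 472 without collagen-bearing mural cells, an alternative chosen after seeing the data. Leaving out 1 library gave 116 to 224 higher and 400 to 477 lower, since 1 library then makes the call. Against endothelial cells, a pseudocount of 1 gave 1470 and 1871. Genes with a 4-fold range numbered 3 without cells marked for another class, 4 without hormone genes in the total, 14 without the filter, and 2 without groups 2 and 6, also chosen after seeing the data. Without marked cells the fibroblast shares of libraries 1, 2 and 3 were 2.97, 0.0569 and 3.33%. Resolution 1 gave 11 groups. Krt7 and Krt8 reversed against endothelial cells, at -0.64 and -2.35 without marked cells and -0.67 and -2.47 without groups 2 and 6; the cause was not tested. Among single genes and lists, 5233 values stayed, 901 moved and 4 reversed. No paired analysis was possible because no comparison between the labelled groups could be made; ratios between cell classes were already formed within each library. The 9 and 7 fibroblasts of libraries 2 and 4 limit every value given for them.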
